A study of Tribolium castaneum with 2 samples.

Results

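The positions described here are cytosines on the 10 linkage groups of the red flour beetle *Tribolium castaneum* that were read often enough to judge each of them on its own. A position was selected when it lay on a sequence assigned to a linkage group, had at least 10 reads in each of the 2 replicates, and had at most 100 reads when both replicates were summed. The rule selected 41300 of the 19983652 positions listed in either replicate, which is 0.207%. They make up 0.436% of the 9472804 linkage group positions listed in both replicates, and 93.4% of the 44240 linkage group positions with at least 10 reads in each. The other 2940 of these had more than 100 reads in total.

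Whole genome bisulfite sequencing was performed on 2 pools of eggs of the strain GA-2, which serve as replicates 1 and 2 of 1 untreated condition. The eggs were between 1 and 2 days old and were not separated by sex. There was no comparison group, and no sample of known methylation was analysed here. Each pool gave 1 library, so the spread between replicates includes the spread between library preparations and cannot be told apart from it.

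In insects, DNA methylation is mostly found at cytosines followed by a guanine (CpG), where it is symmetrical on both strands and is maintained after replication by the methyltransferase DNMT1. In many holometabolous insects it is sparse and concentrated in gene bodies. Where a locus is methylated, a large part of the DNA molecules often carries the mark at the same cytosine. Treatment with bisulfite turns unmethylated cytosines into uracil, which sequencing reads as thymine, and leaves methylated cytosines unchanged. An unconverted read can therefore come from a methylated cytosine, from a cytosine that escaped the treatment, or from a sequencing error. The tables give no strand and no sequence context, so a position is a listed cytosine and not necessarily a CpG. Gene annotation and sequence of the assembly used for the counts were not analysed here.

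At nearly all of these well-covered positions, every read was converted. Summed over both replicates, 40518 of the 41300 positions (98.1%) had no unconverted read, 760 had exactly 1 and 22 (0.0533%) had 2 or more. No position reached a summed level of 20%, and the highest level of any position was 13.1%. At the 782 positions with an unconverted read the median level was 2.63%, which is 1 read among about as many reads as a typical position had.

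The selected positions had a median of 15 reads in replicate 1 (range 10 to 61) and of 18 reads in replicate 2 (range 10 to 68). Summed, the median was 33 reads, where the linkage group positions listed in both replicates had a median of 5. The positions are therefore a deep tail of the data. Replicate 2 had more reads than replicate 1 at 68.1% of them, and across the 41300 positions the reads of the replicates had a Pearson correlation of 0.77 and a Spearman correlation of 0.67. These coefficients describe positions that share libraries and neighbouring molecules, and depth was part of the rule.

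In replicate 1, 306 of 705058 reads at these positions were unconverted, a non-conversion of 0.0434% (95% Wilson interval 0.0388% to 0.0485%). In replicate 2, 512 of 851508 reads were unconverted, or 0.0601% (0.0551% to 0.0656%). The mean was 0.0518% ± 0.0118 (SD, n = 2), which is a conversion of 99.95%. Replicate 2 thus had a 1.39 times higher rate, with intervals that did not overlap. These and all later intervals take only counting error into account, although 1 molecule contributes reads to several neighbouring cytosines.

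The selected positions had slightly higher rates than the other linkage group positions, a difference that did not pass the test. The other linkage group positions listed in both replicates had 0.0387% and 0.0576%. The ratio of the selected to the other positions was 1.12 in replicate 1 (95% interval 1.00 to 1.26) and 1.04 in replicate 2 (0.955 to 1.14). After Benjamini-Hochberg adjustment over 6 comparisons, two-sided Fisher's exact tests on the reads gave p = 0.107 and p = 0.418. The tests compare reads of these libraries, and the intervals leave room for a rate up to 1.26 times as high. Restricted on both sides to positions with no listed position directly beside them, the ratio was 1.21 in replicate 1 and 1.04 in replicate 2. Fisher's exact tests gave p = 0.0269 and p = 0.488, adjusted over the 2 replicates only and not over the 6 comparisons. The first passed the threshold under this smaller adjustment. Merged within 240 bp, the unconverted positions of this subset counted 157 for 313688 reads in replicate 1, against 5333 for 11861861 at the others. In replicate 2 they counted 238 for 378026 reads, against 9164 for 14883362. These merged counts were not tested. With unconverted positions within 240 bp merged, the ratios of all selected positions were 1.03 and 0.993. The 2940 positions with more than 100 reads had 0.0538% and 0.0566%, and here too neither ratio passed the threshold (0.807 with adjusted p = 0.107 in replicate 1 and 1.06 with adjusted p = 0.449 in replicate 2, Fisher's exact test).

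Values on either side of the limits of the rule were close. At the 6661 selected positions with exactly 10 reads in the shallower replicate, non-conversion was 0.0392% in replicate 1 and 0.0582% in replicate 2. At the 9091 positions with 9 reads it was 0.0420% and 0.0597%. At the upper limit, the 551 selected positions with 91 to 100 reads had 0.0255% and 0.0757%, on only 6 and 22 unconverted reads. The 408 positions with 101 to 110 reads had 0.0361% and 0.0551%, on 7 and 13.

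Within the selection the rates of shallower and deeper positions lay close together. From 20 to 29 reads it was 0.0419% in replicate 1 and 0.0605% in replicate 2, and from 60 to 100 reads it was 0.0460% and 0.0679%, with overlapping Wilson intervals in each replicate. What rose with depth was the share of positions with any unconverted read, from 1.27% of the 15893 positions with 20 to 29 reads to 3.90% of the 4229 positions with 60 to 100 reads. More reads at a position give more chances of an unconverted one at the same rate.

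In each replicate the unconverted reads were spread thinly, mostly 1 to a position. In replicate 1, 293 positions (0.709%) had an unconverted read, of which 284 had 1, 6 had 2, 2 had 3 and 1 had 4. In replicate 2, 501 positions (1.21%) had one, of which 493 had 1, 7 had 2 and 1 had 5. Over all 187588 positions of the series with at least 10 reads in each replicate, unplaced sequences included, the shares with an unconverted read were 2.01% and 3.5%, and those positions reach far greater depths.

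If every read at the selected positions had the rate of its replicate, the coverage would give 305 positions with an unconverted read in replicate 1 and 508 in replicate 2, where 293 and 501 were observed. The same calculation would give 1.27 positions with 2 or more in replicate 1, where 9 were observed, and 3.65 in replicate 2, where 8 were observed. The first of these numbers follow almost directly from the number of unconverted reads and do not test for a common rate. The few positions with several unconverted reads exceed the calculated number.

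**Figure D1:**
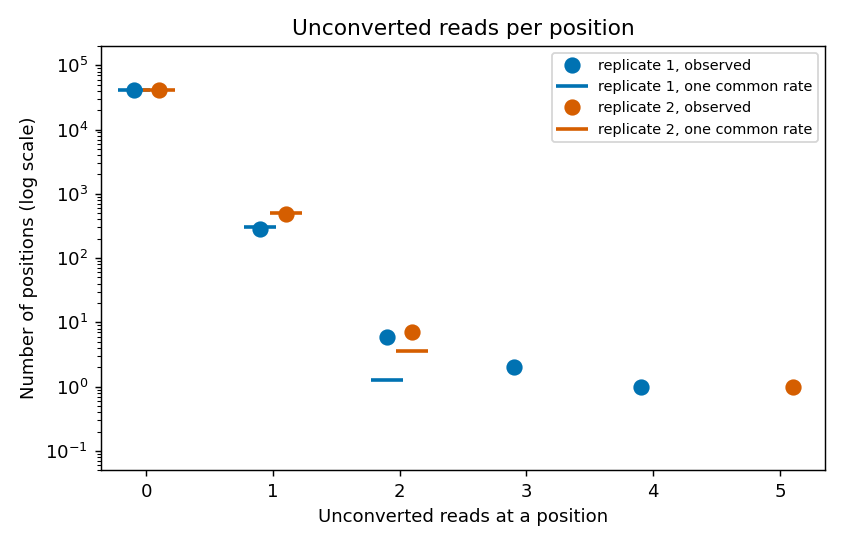
Number of selected positions (log scale) by the number of unconverted reads at the position. Points are the observed numbers in replicates 1 and 2, and horizontal marks are the numbers that 1 common rate per replicate would give (marks under 0.1 positions are left out). Positions with 1 unconverted read number 284 and 493, while 9 and 8 positions have 2 or more.

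An unconverted read in both replicates was seen at 12 positions, which is 0.0291% of the 41300. The share was 0.529% over all positions with at least 10 reads in each replicate. Those include unplaced sequences and positions with more than 100 summed reads, so the 2 shares differ in depth. At the rates of the replicates, coverage alone would give 4.32 such selected positions, fewer than the 12 observed. At 7 of the 12, exactly 1 read was unconverted in each replicate. Their summed levels ran from 2% to 13.1% with a median of 6.35%.

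Single positions were compared with the overall rate of their replicate by an exact binomial test for an excess of unconverted reads (one-sided), run on all listed positions covered by 5 or more reads and adjusted over these after Benjamini and Hochberg. Among the selected positions, 3 had an adjusted p-value under 0.05 in replicate 1 and 1 in replicate 2, and this last one passed in both. Over all positions tested the shares that passed were 0.00112% in replicate 1, 0.000338% in replicate 2 and 0.000809% in both. At an unadjusted p-value under 0.05 in both replicates, 12 selected positions passed, and these are the positions with an unconverted read in each. At the depths of the selection any single unconverted read gave such a p-value, so this count adds no test. The corresponding share over all positions tested in both, from 5 reads upward, was 0.0144%.

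The position that passed in both replicates was position 9790 of the sequence LG8_WGA130_2 on linkage group 8. Replicate 1 had 3 unconverted reads among 34 there and replicate 2 had 5 among 27, with adjusted p-values of 0.0319 and 2.11e-06 in the exact binomial test. The levels were 8.82% and 18.5%, or 13.1% together. The 78 other listed positions within 240 bp had a median of 4 reads. The deepest of them had 61 reads, as many as position 9790 itself, and 13 of them were selected positions. None of the 762 reads at those 78 positions was unconverted in either replicate, so the signal was confined to the position itself within that window. No listed position was directly beside it. With a background of 1% in place of the overall rates, it no longer passed in both replicates, and neither did any other selected position.

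Of all selected positions, 1 other had at least 2 unconverted reads in each replicate. This was position 975595 of LG8_WGA134_2, also on linkage group 8, with 4 unconverted reads among 26 in replicate 1 and 2 among 38 in replicate 2. The adjusted p-values of the exact binomial test were 6.57e-05 and 1. Its summed level was 9.38%. It stood out in depth, as the 40 other listed positions within 240 bp had at most 12 reads with a median of 2. None of their 116 reads was unconverted. The third position that passed in replicate 1, position 2189144 of LG5_WGA91_2, had 3 unconverted reads among 20 there (exact binomial test, adjusted p = 0.00704) and none among 12 in replicate 2. It was named after its values were seen. None of the 3 positions had a listed position directly beside it. Whether they are CpGs, with a partner cytosine on the other strand, is not given.

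The remaining positions with an unconverted read in each replicate were chosen for display after their values were seen. At position 200424 of LG10_WGA164_2, 2 of 13 and 1 of 16 reads were unconverted, and at position 530034 of LG2_WGA22_2, 2 of 14 and 1 of 17. Both were deeper than any other listed position within 240 bp, as these reached 10 reads around the former and 17 around the latter, with medians of 3.5 and 2. None of the 138 and 154 reads around them was unconverted. At position 862915 of LG5_WGA81_2, 1 of 29 and 2 of 44 reads were unconverted, and 1 of the 246 reads around it.

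The closest pair of positions unconverted in both replicates lay 54 bp apart on LG4_WGA72_2, at positions 3431793 and 3431847. Including this pair, 11 positions are listed on this stretch, all of them well covered with 17 to 28 reads in replicate 1 and 15 to 25 in replicate 2. In replicate 1, 6 of the 11 positions had an unconverted read, with 8 of 252 reads in total, and in replicate 2 there were 3, with 3 of 230 reads. This was the group with the most unconverted positions in replicate 1. The gaps between the 11 positions are between 3 and 12 bp and all 10 are multiples of 3 bp. The highest counts at a single position of the stretch were 2 of 26 and 2 of 23 reads in replicate 1, both at positions without an unconverted read in replicate 2.

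Depth at these positions allows an upper bound on the share of such positions that could be methylated at a given level. A position was called compatible with a level when its unconverted reads, summed over the replicates, reached the 5% quantile of a binomial distribution at that level and depth. A position truly at that level would be found compatible with a probability of at least 95%. With 22 reads this takes 2 unconverted reads for a level of 20%, 7 for 50% and 22 for 100%, and with 40 reads it takes 4, 15 and 40. All compatible positions were counted as methylated, so the bound is an upper one. It was taken as the one-sided 95% Clopper-Pearson limit of the compatible share, divided by the mean probability of detection. That limit treats the positions as independent draws, although neighbouring positions share molecules. A level is the share over all reads counted at a position. The selected positions had a median of 33 summed reads, and the linkage group positions listed in both replicates had 5. Whether reads of several repeat copies were counted at the same position was not tested. Where they were, the bounds are on the level over all copies and not on that of a single copy.

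For a level of 100% none of the 41300 positions was compatible. The bound on the share of fully methylated positions was 0.00725%. This corresponds to 3.00 per 41300 and is a limit on a rate, not a count among these positions. Compatibility with 100% requires every read to be unconverted and leaves no room for a read error. With a level of 95% in its place no position was compatible, and the bound was 0.00747%. For a level of 50% there was none either, with a bound of 0.00752% (3.11 per 41300). Over all positions of the series with at least 10 reads in each replicate, the share compatible with 50% was 0% as well. Methylation at a level of 50% or 100% was thus not detected at any selected position. Since the sequence context is not given, these bounds are over all listed cytosines and not over CpGs alone.

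For a level of 20%, 26 positions (0.0630%) were compatible, with a bound of 0.0900% (37.2 per 41300). The background was 0.0362% over all positions with at least 10 reads in each replicate, which include deeper ones. Of the 26 positions, 21 were among the 1942 with 20 or 21 reads, where a single unconverted read suffices. Only 5 of the other 39358 positions were compatible. With at least 15 reads in each replicate only 1 of 18691 positions was, which lowers the bound to 0.0262%. From the reads alone, with the upper Wilson limit of the pooled non-conversion divided by the level, the bounds are 0.281% at 20%, 0.113% at 50% and 0.0563% at 100%. This cruder limit counts every unconverted read as methylation. A single replicate does not carry the bound for a level of 20%, since at 10 reads a position at that level can have no unconverted read too often. The bound then rises to 25.6% without replicate 1 and to 42.4% without replicate 2.

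**Figure D2:**
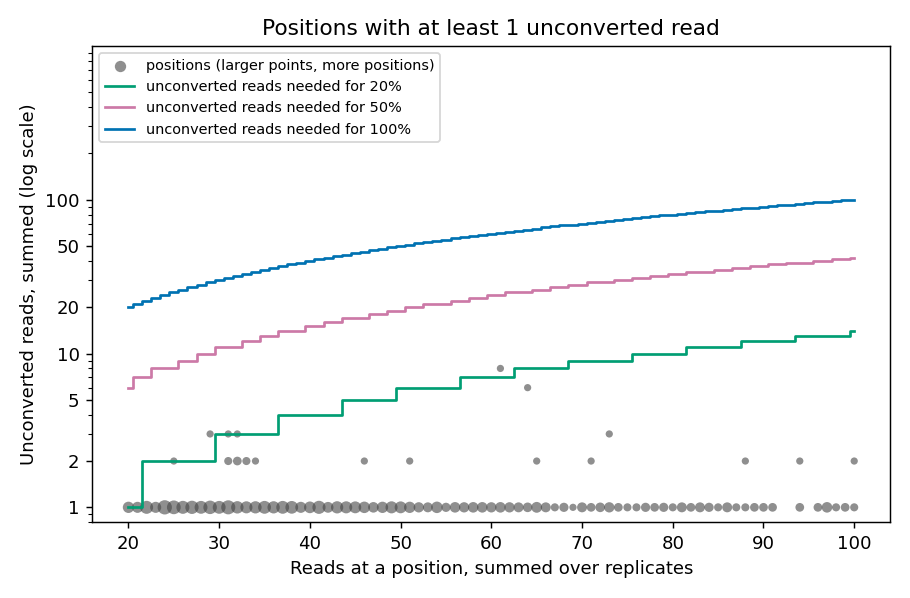
Selected positions with at least 1 unconverted read, by the reads at the position (x axis) and the unconverted reads (y axis, log scale), both summed over the replicates. The stepped lines are the unconverted reads needed for compatibility with a level of 20%, 50% and 100%. No position reaches the 50% or the 100% line, and 26 reach the 20% line, 21 of them with 20 or 21 reads.

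The positions were spread over all 10 linkage groups, which correspond to the chromosomes, but not in proportion to the listed positions. LG7 held 6886 (16.7%), LG3 held 6527 (15.8%) and LG4 held 5912 (14.3%). The smallest numbers were 1169 (2.83%) on LG1=X, the X chromosome, and 2151 (5.21%) on LG5. As a share of the positions listed in both replicates, they made up 0.778% on LG6, 0.623% on LG4 and 0.617% on LG10, but 0.238% on LG1=X and 0.197% on LG5. In a mixture of both sexes the X chromosome is present in fewer copies than an autosome, and its listed positions had a mean of 4.94 reads, where those of the autosomal linkage groups had 5.60 to 5.93. LG5 had the lowest mean of the autosomal linkage groups, 5.60 reads, and a smaller share than LG1=X. Why the shares differ was not tested.

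Every linkage group gave a low non-conversion in each replicate. In replicate 1 the rates ran from 0.0353% on LG8 (33 of 93439 reads) to 0.0583% on LG10 (28 of 48013 reads), with a mean over the linkage groups of 0.0461% ± 0.00807 (SD, n = 10). The linkage groups did not differ beyond counting error in a chi-square test of the reads (9 degrees of freedom, adjusted p = 0.559). In replicate 2 they ran from 0.0341% on LG10 (20 of 58709 reads) to 0.0781% on LG4 (90 of 115231 reads), with a mean of 0.0582% ± 0.0134 (SD, n = 10). Here the chi-square test of the reads passed the threshold (9 degrees of freedom, adjusted p = 0.00647).

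This difference among linkage groups in replicate 2 was not found under every way of counting. When unconverted positions within 240 bp of each other, the size of the sequenced fragments, were counted as 1 event, the chi-square test gave adjusted p = 0.462 in both replicates. On LG4 the 89 unconverted positions of replicate 2 formed 65 events, and on LG8 79 formed 62, while on LG1=X all 13 were separate. Counted in events, LG1=X had the highest rate and LG10 the lowest, and the ratio between them was 1.75. Among the positions with at most 50 reads in total, the chi-square test on reads missed the threshold as well (adjusted p = 0.229). It passed among the positions with at least 15 reads in each replicate, with a ratio of highest to lowest rate of 2.31 (adjusted p = 0.00115, chi-square test), where all positions had 2.29. It also passed among the positions with no listed position directly beside them, with a ratio of 5.36 (adjusted p = 0.0032, chi-square test). This ratio is between LG8 with 52 of 50744 reads unconverted and LG10 with only 5 of 26133. Of the reads on LG8, 5 were at position 9790 of LG8_WGA130_2 and 2 at position 975595 of LG8_WGA134_2.

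Replicate 2 had the higher rate on 9 of the 10 linkage groups, from 1.01 times that of replicate 1 on LG1=X to 2.20 times on LG8. LG10 was the exception with 0.584 times, as it had the highest rate of replicate 1 and the lowest of replicate 2. The Wilson intervals of the replicates did not overlap on LG8 and LG4. Whether the linkage groups differ between the replicates was examined with a chi-square likelihood-ratio test, which gave p = 0.0257 on the reads (9 degrees of freedom, unadjusted). The same chi-square test gave p = 0.302 without LG10, p = 0.124 without LG8 and p = 0.159 on events, while without any other single linkage group it gave p-values from 0.0154 to 0.0287. The result on reads thus rested on LG10 and on LG8. Across the 10 linkage groups the rates of the replicates had a Pearson correlation of -0.43 and a Spearman correlation of -0.21, which describes 10 values from the same 2 libraries. LG2 was the only linkage group above the mean of the linkage groups in both.

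**Figure D3:**
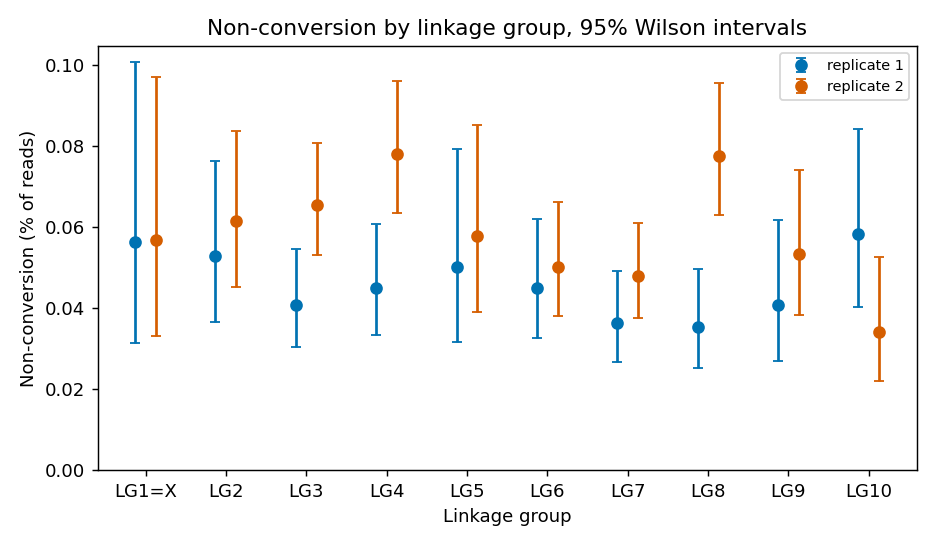
Non-conversion of the selected positions (percent of reads) on each linkage group, with 95% Wilson intervals, in replicates 1 and 2. Replicate 2 is higher on 9 of 10 linkage groups, and on LG10 replicate 1 is higher with 0.0583% against 0.0341%.

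Each linkage group holds fewer positions, and its bounds were higher than those over all selected positions. At a level of 20% they also depended on the number of compatible positions. At a level of 50% no linkage group had a compatible position, and the bounds ran from 0.0451% on LG7 to 0.265% on LG1=X. At a level of 20% every linkage group had between 1 and 5 compatible positions. LG8 had 5, LG3 had 4, and LG5 and LG9 had 1 each, with bounds from 0.0941% on LG7 to 0.682% on LG1=X.

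The well-covered positions lay close together. They occurred on 172 of the 176 sequences assigned to linkage groups, and the 24 sequences with the most held at least 50% of them, but none held as many as 10%. LG4_WGA71_2 held 3174 (7.69%) and LG7_WGA108_2 held 3025 (7.32%). On LG7_WGA108_2 they made up 22.2% of the positions listed in both replicates, and on LG4_WGA71_2 1.75%. Within 10 kb of the first or last listed position of a sequence lay 16.7% of them, compared with 2.58% of all linkage group positions listed in both replicates.

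The median gap between consecutive selected positions of a sequence was 10 bp, and 90.3% of the gaps were at most 240 bp. Joined over such gaps, the 41300 positions formed 4170 clusters. Of these, 1168 held a single position, and 56 held at least 100 positions and together 25.9% of all. The largest cluster, with 579 positions, spans 6098 bp of LG6_WGA106_2 (positions 280744 to 286841), and 1468 positions are listed in both replicates there. It had 3 of 13765 reads unconverted in replicate 1 and 13 of 15928 in replicate 2, which is 0.0218% and 0.0816%. The second, with 495 positions on LG4_WGA71_2 (positions 1766801 to 1774243), had 5 of 11731 and 5 of 14268 reads unconverted. The third, with 470 positions on LG7_WGA108_2 (positions 37191 to 47087), had 8 of 8788 and 2 of 10452. Few reads were unconverted even in these densely read stretches, and the replicate with more of them was not always the same.

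Unconverted reads occurred in 502 of the 4170 clusters (12.0%), in 83 of them in both replicates. Positions that stood alone had the higher pooled rate in replicate 1. In the 1168 clusters of a single position, non-conversion was 0.126% in replicate 1 (18 of 14266 reads, 95% Wilson interval 0.0798% to 0.199%) and 0.0886% in replicate 2 (14 of 15797 reads, 0.0528% to 0.149%). In clusters of at least 100 positions it was 0.0399% and 0.0528%. The single positions had a rate 3.03 times that of the clustered ones in replicate 1 (95% interval 1.88 to 4.87, Fisher's exact test, adjusted p = 0.000801 over 12 comparisons) and 1.49 times in replicate 2 (0.875 to 2.53, adjusted p = 0.185). Without position 9790 of LG8_WGA130_2 and position 975595 of LG8_WGA134_2 the ratios were 2.38 and 1.29 (adjusted p = 0.0118 and 0.435, Fisher's exact test). Single positions were shallower, with a median of 23 reads against 33, and 69.0% of them had no listed position directly beside them, compared with 44.4% of the clustered ones. Among positions without such a neighbour the ratios of single to clustered were 2.63 and 1.29 (adjusted p = 0.00974 and 0.435, Fisher's exact test). The share of positions with an unconverted read in either replicate was 1.97% of the single and 1.89% of the clustered positions. The comparison was chosen after the values were seen and rests on few reads. Of the 12 positions unconverted in both replicates, 3 stood alone.

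**Figure D4:**
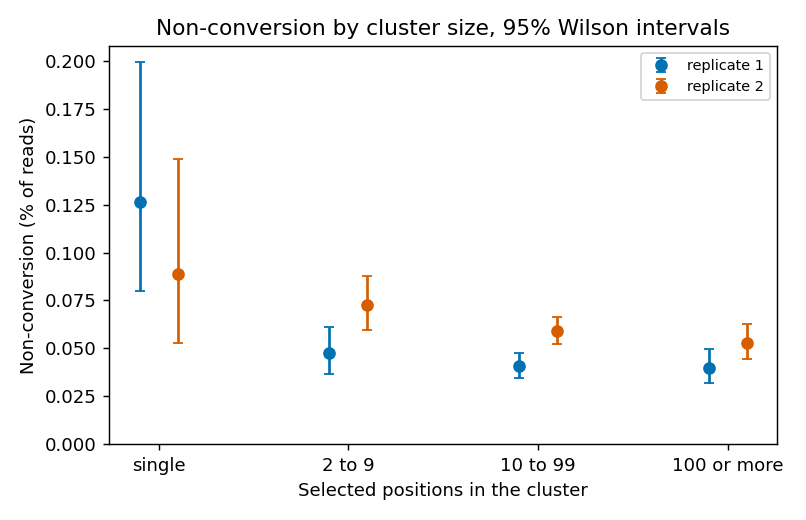
Non-conversion (percent of reads, with 95% Wilson intervals) of selected positions by the number of selected positions in their cluster, in replicates 1 and 2. Single positions have 0.126% and 0.0886%, and clusters of 100 or more have 0.0399% and 0.0528%.

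Some unconverted positions of the same replicate lay together. Whether this differed between the replicates was not tested, and replicate 2 had more unconverted positions. The 293 unconverted positions of replicate 1 formed 271 events, and 12.6% of them shared an event with another. The 501 of replicate 2 formed 415 events, with 28.7% in events of several positions. Pairs at most 10 bp apart numbered 3 in replicate 1 and 31 in replicate 2. The event with the most positions in replicate 2 comprised 5 positions within 11 bp of LG4_WGA71_2 (positions 1800854 to 1800864), where 6 of 73 reads were unconverted in replicate 2 and none of 61 in replicate 1. Both replicates cover this stretch to similar depth, and only 1 shows the unconverted reads.

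A symmetrical mark would leave both cytosines of a CpG unconverted, and these lie directly beside each other on opposite strands. Among the selected positions there were 7724 pairs directly beside each other, and 217 of them had an unconverted read at either position in either replicate. Both positions of a pair had an unconverted read in 0 pairs in replicate 1 and in 11 pairs in replicate 2. No pair was unconverted at both positions in both replicates. This already follows from the 54 bp between the closest positions unconverted in both replicates, and adds no test. Since strand and context are not given, these pairs include neighbouring cytosines of 1 strand.

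The selected positions differed by their listed neighbours. At the 18627 positions (45.1%) with no listed position directly beside them, called isolated here, non-conversion was 0.0564% in replicate 1 (177 of 313688 reads) and 0.0712% in replicate 2 (269 of 378026 reads). At the 22673 positions with a listed position directly beside them it was 0.0330% (129 of 391370 reads) and 0.0513% (243 of 473482 reads). The ratio was 1.71 in replicate 1 (95% interval 1.36 to 2.15, Fisher's exact test, adjusted p = 9.21e-06 over 16 comparisons) and 1.39 in replicate 2 (1.17 to 1.65, adjusted p = 0.000513). Counted in events it was 1.62 and 1.46 (adjusted p = 0.000157 in each, Fisher's exact test). This comparison was chosen after the values were seen.

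The difference was not particular to the well-covered positions. The other linkage group positions listed in both replicates had 0.0465% and 0.0682% at isolated positions and 0.0307% and 0.0467% at the others, a ratio of 1.52 (95% interval 1.45 to 1.58) in replicate 1 and 1.46 (1.41 to 1.50) in replicate 2. Isolated and other selected positions had nearly the same depth, with medians of 32 and 33 reads. Within classes of depth the ratio was above 1 in each class and replicate, from 1.08 at 20 to 29 reads in replicate 2 (adjusted p = 0.721, Fisher's exact test) to 2.11 at 20 to 29 reads in replicate 1 (adjusted p = 0.00229). Isolated positions had the higher rate on 9 of 10 linkage groups in replicate 1, with LG2 as the exception, and on 8 of 10 in replicate 2, with LG9 and LG10 as the exceptions.

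**Figure D5:**
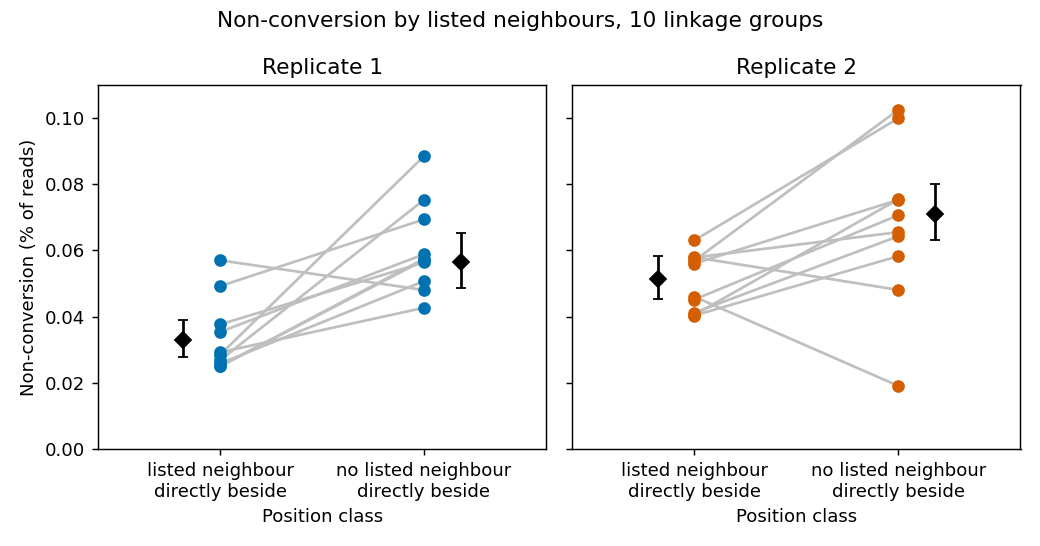
Non-conversion (percent of reads) of selected positions with and without a listed position directly beside them, in replicates 1 and 2. Coloured points joined by lines are the 10 linkage groups, and black diamonds with 95% Wilson intervals are all selected positions, at 0.0330% against 0.0564% in replicate 1 and 0.0513% against 0.0712% in replicate 2.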

How the data were processed

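DNA of 2 pools of eggs was bisulfite treated and sequenced in pairs. Per the labels and methods, the authors used Trimmomatic 0.32 for trimming, BSMAP 2.5 for mapping to version 3.0 of the assembly, Picard to discard duplicates and the program that accompanies BSMAP for counting. The deposited tables hold raw, unnormalized counts, in which each position of a replicate has a number of unconverted and a number of converted reads. They have no header, so the count column with the small sum was taken as the unconverted reads, as the methods describe a proportion that was not converted. Coverage was the sum of both columns. Mapping, the removal of duplicates and reads from repeats decide which reads are counted and could not be varied.

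Positions, comparisons and alternatives were chosen with earlier results of these data known, and those on isolated and single positions and on linkage groups by replicate after the values were seen. The one-sided exact binomial test was run over the whole table on positions of 5 or more reads, with a threshold of 0.05 after Benjamini-Hochberg adjustment. It was also tested on simulated data, whose reads were drawn independently and so lack the shared molecules of these data. Positions named by rule were those called in both replicates and those with at least 2 unconverted reads in each, up to 10, and sequences with at least 10% of the positions. Python 3.11.15, numpy 2.4.6, pandas 2.3.3, scipy 1.17.1, statsmodels 0.14.6 and matplotlib 3.10.9 were used. Summed over all listed positions, on 2313 sequences, replicate 1 had 42534665 read counts and replicate 2 had 55723118. A read is counted at each listed cytosine it covers, here and wherever reads are summed over positions. The overall rates of these counts, 0.0384% and 0.0569%, were the background of the test. At 20 to 100 summed reads a single unconverted read stands for a level of 1% to 5%, so lower levels at single positions were not detectable.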

Additional observations from a re-analysis of the deposited data

How the results depend on the processing

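No paired analysis was possible because the 2 replicates belong to 1 condition. The mean non-conversion of 0.0518% became 0.0638% for positions without a listed neighbour directly beside them, and single replicates gave 0.0434% to 0.0601%. For these positions the ratio to other linkage group positions without such a neighbour was 1.21 in replicate 1. Fisher's exact test gave p = 0.0269 there, adjusted over the 2 replicates only, and the merged counts of this subset were not tested. All positions had missed the threshold with ratios of 1.12 and 1.04. Between 1 and 3 positions passed the binomial test in a single replicate, and 0 passed in both with a background of 1% or with at most 50 reads summed. The bound for a level of 20% was 0.0262% with at least 15 reads in each replicate, 0.105% with at most 50 reads summed, 0.128% without listed neighbours, 2.48% with the 1% quantile, 18.9% with compatibility asked of each replicate, 0.281% from the reads alone and 25.6% to 42.4% from single replicates. Thresholds of 0 or 1 unconverted reads at low depth set the high values. For 50% it was 0.0166% with at least 15 reads, 0.0167% without listed neighbours and 0.113% from the reads alone, and for 100% 0.0160%, 0.0161% and 0.0563%. In the first pair of each, no position was compatible and fewer positions were tested. Single replicates gave 0.00747% to 0.00749% for 50% and 0.00725% for 100%. The test over linkage groups in replicate 2 was lost on events (ratio of highest to lowest 1.75) and with at most 50 reads summed (2.27), and kept with at least 15 reads (2.31) and without listed neighbours (5.36). The ratio of 5.36 rests on only 5 unconverted reads on LG10. The test of linkage groups by replicate had a deviance of 18.9, but 13.1 on events, 12.7 without LG8 and 9.50 without LG10.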
